A study of Rattus norvegicus with 96 samples.

Results

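Ttr, Kl, Folr1, Slc4a5, Clic6, Tmem72 and Otx2 are 7 genes known from the choroid plexus, and they were followed here through RNA-seq libraries of the ventral tegmental area (VTA), nucleus accumbens (NAc) core and NAc shell of rats. They were chosen by name and found by Ensembl identifier in the deposited table, where they are 7 of 17637 genes. The identifiers were ENSRNOG00000016275 on chromosome 18 for Ttr, ENSRNOG00000001092 on chromosome 12 for Kl, ENSRNOG00000019902 on chromosome 1 for Folr1 and ENSRNOG00000010378 on chromosome 4 for Slc4a5. Those of the remaining genes were ENSRNOG00000026870 on chromosome 11 for Clic6, ENSRNOG00000023340 on chromosome 4 for Tmem72 and ENSRNOG00000048322 on chromosome 15 for Otx2. All 7 passed the filter on low counts that left 16879 genes to test.

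The choroid plexus is a fold of secretory epithelium inside the brain ventricles that makes cerebrospinal fluid and forms a barrier between blood and fluid. The ventricle wall beside it is lined by ependymal cells, which carry motile cilia. Neither VTA nor NAc contains choroid plexus, so the levels were examined for how few libraries held these genes and for whether the genes rose and fell together. Otx2 is a special case, since this homeodomain transcription factor is also made by dopamine neurons of the VTA.

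The rats were F1 offspring of the inbred strains F344 and BN, from the initial and the reciprocal cross, 16 males and 16 females. Of each sex, 8 rats were injected daily for 4 days with nicotine (NIC) at 0.4 mg/kg of base and 8 with saline (SAL), and brains were taken on day 17. VTA, NAc core and NAc shell were dissected by hand and sequenced as separate libraries. All males were in box1 and all females in box3 of the library titles, so that sex and box cannot be told apart, and 10 library preparation batches were named in the labels. The 94 libraries used here form 12 groups of 7 or 8 rats, 31 libraries from VTA, 31 from NAc core and 32 from NAc shell. Levels are given as CPM, the count of a gene scaled to the TMM-adjusted size of its library, and they are not compared between genes, whose lengths differ.

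The 96 libraries held between 15868529 and 27736905 estimated counts each, and a count of 0 allows a level of up to 0.106 to 0.191 CPM (a limit of 3 counts, which covers counting error only). The dissections were checked against marker genes. The summed level of 6 dopamine neuron genes was 99.5 CPM in female VTA NIC 2 and 986 CPM in female VTA NIC 7, and between 1084.5 and 2706 CPM in the other VTA libraries. Among the NAc libraries, male NAc core SAL 1 and male NAc shell SAL 1 had the lowest sums of 4 striatal projection neuron genes in their regions, at 265 and 196 CPM against medians of 2345 and 1710 CPM. Female VTA NIC 2 was thus low in the marker genes of its labelled region and was kept under its label, whereas the library labelled female NAc core NIC 1, with a dopamine neuron sum of 1053 CPM, is not among the 94. Results that rest on the libraries with high Ttr, female VTA NIC 2 included, are given with and without them. In such bulk samples, fewer cells of a type and less RNA per cell cannot be told apart.

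Ttr encodes transthyretin, the carrier of thyroxine and retinol-binding protein that choroid plexus epithelium secretes into cerebrospinal fluid. Its level was low and present in most libraries, with a small number far above the rest. The median over 31 VTA libraries was 3.11 CPM, the lowest 0.0916 CPM and the highest 2567 CPM. In NAc core the median was 0.238 CPM and the highest value 2.14 CPM, with 0 counts in 6 of 31 libraries. In NAc shell the median was 0.982 CPM, the lowest 0.150 CPM and the highest 357 CPM. Female VTA NIC 2 alone held 63.9% of all Ttr CPM over the 94 libraries, and the highest 5 libraries held 96.8%.

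A library was said to carry a gene where its CPM was at least 10 times the median of its region. By this rule 5 of 94 libraries carried Ttr. Female VTA NIC 2 had 2567 CPM, which was 826 times the VTA median and 0.256% of all its counts. Female VTA SAL 16 had 858 CPM, 276 times the median, and female VTA NIC 7 had 94.7 CPM, 30.5 times the median. Male NAc shell SAL 5 had 357 CPM, 363 times the shell median. Female NAc shell NIC 1 had 11.3 CPM, 11.5 times the median and so just inside the rule. Just outside it were female NAc core NIC 2 at 8.97 times, male NAc core NIC 9 at 8.64 times and female NAc core SAL 16 at 7.27 times the core median, all at or below 2.14 CPM. None of the 31 NAc core libraries carried Ttr, and none of the 15 male VTA libraries did.

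**Figure D1:**
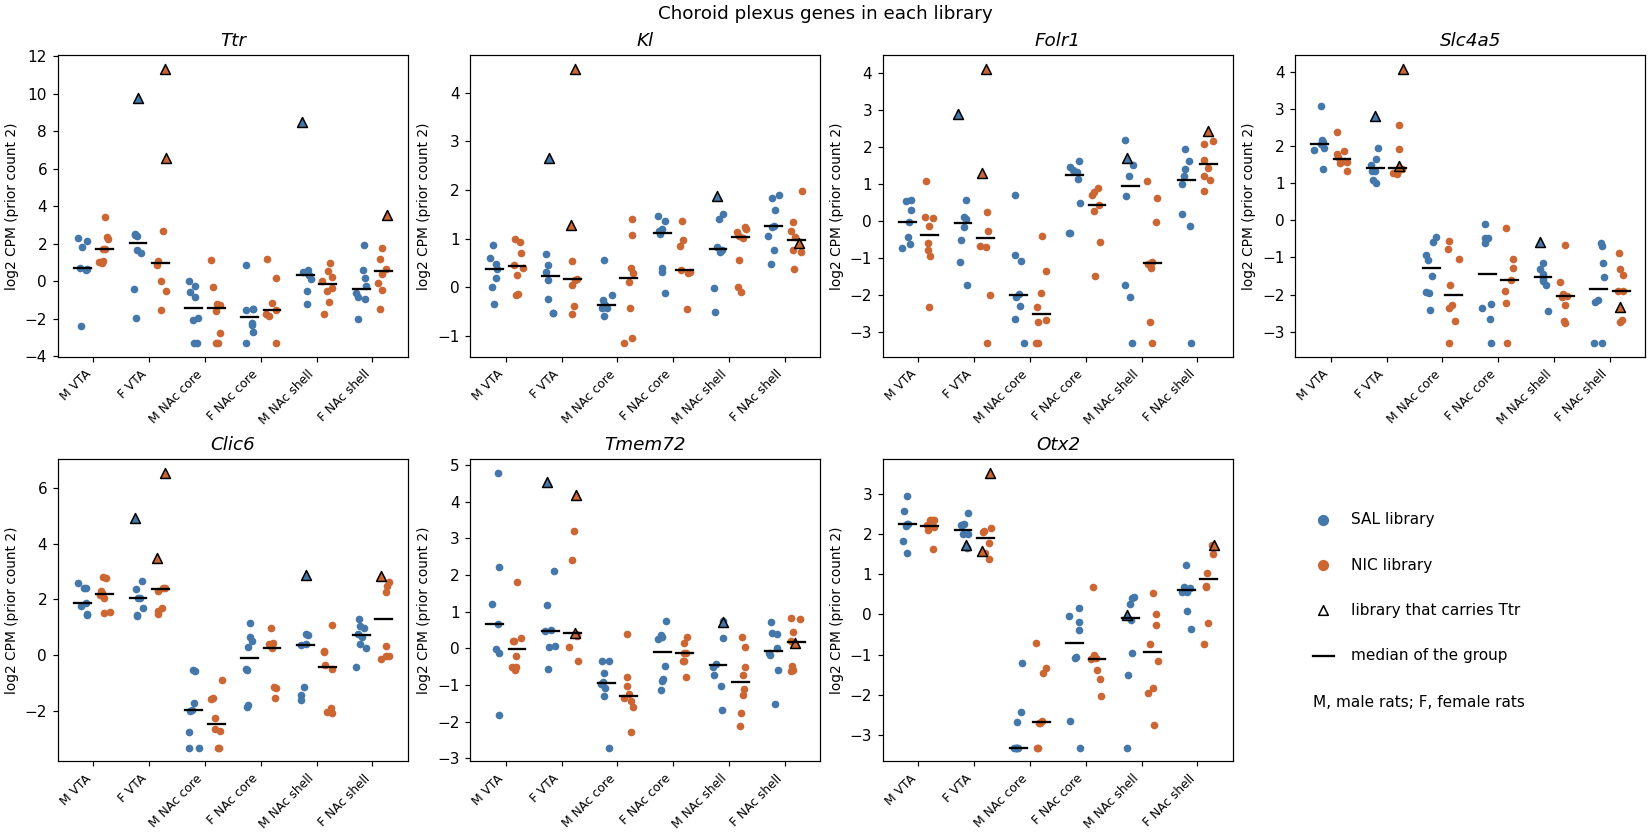
Level of each of the 7 genes in the 94 libraries, as log2 CPM with a prior count of 2, by sex and region on the x axis, with SAL libraries in blue, NIC libraries in orange, medians as black bars and the 5 libraries that carry Ttr as triangles. Ttr lies between 94.7 and 2567 CPM in 3 female VTA libraries and at 357 CPM in 1 male NAc shell library. In VTA every gene but Folr1 has counts in all libraries.

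The other 6 genes were carried by fewer libraries still. Kl, Folr1 and Clic6 were each carried by 1 library, the same one, female VTA NIC 2. Tmem72 was carried by 3 VTA libraries, male SAL 1, female SAL 16 and female NIC 2. Slc4a5 and Otx2 were carried by none. With 5 times the median as the rule, the counts were 8 libraries for Ttr, 2 for Kl, 3 for Folr1, 1 for Slc4a5, 9 for Clic6, 4 for Tmem72 and 1 for Otx2.

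Female VTA NIC 2 was the library in which the whole set was high. Kl, the co-receptor of fibroblast growth factor 23, was at 22.5 CPM there, 19.6 times the VTA median of 1.15 CPM. Folr1, the folate receptor that passes folate into cerebrospinal fluid, was at 17.4 CPM, 22.0 times the median of 0.790 CPM. Clic6, a member of the chloride intracellular channel family, was at 92.6 CPM against a median of 4.42 CPM. Slc4a5, a sodium bicarbonate cotransporter of the apical epithelial membrane, was at 17.0 CPM, 5.56 times the median of 3.05 CPM. Tmem72, a transmembrane protein, was at 15.4 times its median, and Otx2 at 11.3 CPM or 2.58 times its median. All 7 genes were above the VTA median in this library. It was the highest VTA library for each of them but Tmem72, which was higher in female VTA SAL 16 and male VTA SAL 1.

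In female VTA SAL 16, Ttr, Kl, Folr1, Slc4a5 and Clic6 were above their medians by less than in female VTA NIC 2, and Tmem72 by more. Tmem72 was 19.8 times its median there, Folr1 9.25 times, Clic6 6.82 times, Kl 5.44 times and Slc4a5 2.28 times. Otx2 was 0.725 times its median. In female VTA NIC 7, Folr1 was 3.00 times, Clic6 2.50 times and Kl 2.02 times the median, and Tmem72, at 1.06 times, was not raised. In male NAc shell SAL 5, Clic6 was 6.17 times and Slc4a5 3.16 times the shell median, but Slc4a5 stood on only 0.572 CPM. Ttr was the gene with the highest fold over its median in each of the 5 libraries. They were chosen by their Ttr level, so that this ranking follows in part from the rule.

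**Figure D2:**
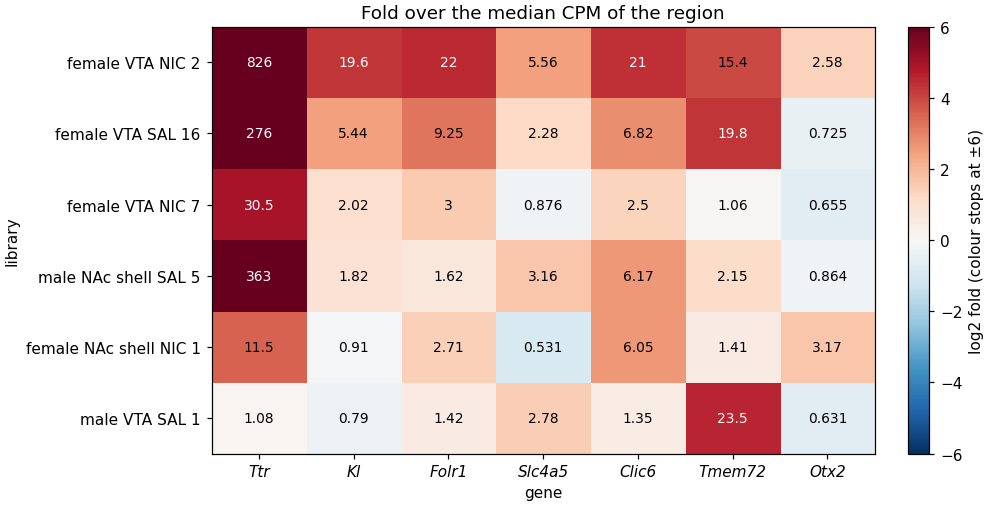
Fold of each gene over the median CPM of its region, in the 5 libraries that carry Ttr and in male VTA SAL 1, with libraries as rows, genes as columns and colour as the log2 fold. Ttr is raised 11.5 to 826 times in the first 5 rows, and in male VTA SAL 1 Tmem72 is raised 23.5 times while Ttr is at 1.08 times its median.

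The libraries that carried Ttr differed in what else they held. In female VTA NIC 2 and NIC 7, all 7 ependymal genes measured (Ccdc153, Rsph1, Pifo, Cfap126, Dynlrb2, Ak7 and Cfap65) were above every VTA library that carried no Ttr, with medians of 7.36 and 5.16 times the region's. Of all tested genes 16.9% and 6.21% were above those libraries in the same way. In female VTA SAL 16 the ependymal genes were at a median of 1.71 times, none above the range of the other libraries, and in male NAc shell SAL 5 at 0.595 times. Female VTA NIC 2 was also low in dopamine neuron genes, with Th, the rate-limiting enzyme of dopamine synthesis, at 0.0254 times the VTA median of 710 CPM. Its 10 meningeal fibroblast genes were at a median of 0.158 times the region's. Their sum of 120 CPM lay within the 86.0 to 1518 CPM of the VTA libraries that carried no Ttr. Female VTA NIC 7 held the hypothalamic peptide genes Pmch at 192 CPM and Hcrt at 11.5 CPM, against medians of 2.11 and 0.203 CPM. In female NAc shell NIC 1 the ependymal genes were at a median of 3.56 times the region's, and 5 of the 7 were above every shell library that carried no Ttr, beside 3.66% of all tested genes. Hcrt was there at 3.08 CPM, above those libraries, and Avp, which encodes vasopressin, at 3.56 CPM, within their range. Male NAc shell SAL 5 kept a striatal sum of 2221 CPM, within the range of the other shell libraries. The part of the dissection in these values was not tested.

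A list of 32 further choroid plexus genes was used beside the 7, of which 22 had an identifier in the tables used here. In female VTA NIC 2, 10 of the 22 were above every VTA library that carried no Ttr, and 5 were at least 5 times the median. Of all 16879 tested genes, 16.9% and 1.54% were so in that library. The 5 were Sostdc1, a secreted Wnt and BMP antagonist, at 41.2 CPM or 79.5 times, Cldn2, a tight junction claudin, at 23.7 CPM or 18.5 times, Prlr, the prolactin receptor, at 2.94 CPM or 10.2 times, Aqp1, the apical water channel, at 6.51 times, and Msx1 at 6.32 times. In female VTA SAL 16, Sostdc1 was 19.9 times and Cldn2 9.92 times the median, and in male NAc shell SAL 5 they were 7.76 and 4.05 times the shell median. Sostdc1 was at 4.00 times the median in female NAc shell NIC 1 and at 2.58 times in female VTA NIC 7. The median over the 22 genes stayed near the region's level, at 1.34 times in female VTA NIC 2, 1.18 times in female VTA SAL 16 and between 0.930 and 1.05 times in the other 3. The 5 listed genes of highest mean level were Igf2, Igfbp2, Htr2c, Enpp2 and Spint2. Igf2 was at 195 CPM in female VTA NIC 2 against a VTA median of 881 CPM, and Igfbp2 at 92.5 against 194 CPM. Enpp2, the secreted enzyme autotaxin, was at 367 against 237 CPM and above the highest library without high Ttr at 297 CPM, Htr2c at 222 against 133 CPM and Spint2 at 45.2 against 52.5 CPM.

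The other dissections of the same rats were compared next. The NAc shell libraries of the rats behind female VTA NIC 2 and SAL 16 were at 0.263 and 0.555 CPM, below the shell median. Their NAc core libraries, at 2.14 and 1.73 CPM, were the highest and the third of the 31 core libraries. The rat behind female VTA NIC 7 went the other way, with 0.171 CPM in core, 0.719 times the median, and 3.28 CPM in shell, 3.34 times the median. The VTA and core libraries of the rat behind male NAc shell SAL 5 were at 1.48 and 0.153 CPM. Over all 30 rats with both libraries, Ttr in VTA and in NAc core gave Pearson's r = 0.56 and Spearman's rho = 0.44 (adjusted permutation p = 0.00357 and 0.0447 over 3 pairs of regions), and r fell to 0.28 without the 2 rats farthest from the median of the VTA level. Over the 26 rats with no library that carried Ttr, the same pair gave Pearson's r = 0.37 and Spearman's rho = 0.33 (adjusted permutation p = 0.185 and 0.292 over 3 pairs of regions). VTA with shell gave r = -0.15 over all 31 rats and 0.12 over 26, and core with shell r = -0.22 over all 31 rats and over 27.

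Tmem72 followed a path of its own in VTA. In the 7 male VTA SAL libraries it was 27.4 CPM in SAL 1, 4.53 in SAL 8, 2.23 in SAL 2, 1.48 in SAL 5, 0.882 in SAL 4, 0.824 in SAL 7 and 0.185 in SAL 6. The highest of these carried no Ttr (3.37 CPM) and had Slc4a5 at 8.46 CPM, 2.78 times its median. Female VTA NIC 1 also had Tmem72 at 9.04 CPM and Slc4a5 at 5.84 CPM, while Ttr was at 0.599 CPM. Over the 28 VTA libraries that carried no Ttr, Tmem72 and Slc4a5 gave r = 0.78 and rho = 0.57 (adjusted permutation p = 0.00042 and 0.0148 over 63 pairs), with r = 0.94 in males and 0.87 in females. Without the 2 libraries farthest from the median of Slc4a5, r was 0.56.

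Of the 7 genes, Ttr, Kl, Slc4a5 and Tmem72 had an entry in the RefSeq promoter table, and the promoters of Slc4a5 and Tmem72 are shown because these genes varied together where Ttr was not high. Both are the 250 bases before the RefSeq start on assembly GRCr8, at chr4:117283044-117283293 on the plus strand for Slc4a5 and at chr4:151645990-151646239 on the minus strand for Tmem72, and capitals mark CCAAT or its reverse ATTGG.
Slc4a5: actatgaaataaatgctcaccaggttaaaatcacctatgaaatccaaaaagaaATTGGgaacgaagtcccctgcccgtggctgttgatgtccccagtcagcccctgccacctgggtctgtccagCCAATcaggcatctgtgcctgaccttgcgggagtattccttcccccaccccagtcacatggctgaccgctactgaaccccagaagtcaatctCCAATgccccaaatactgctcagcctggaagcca
Tmem72: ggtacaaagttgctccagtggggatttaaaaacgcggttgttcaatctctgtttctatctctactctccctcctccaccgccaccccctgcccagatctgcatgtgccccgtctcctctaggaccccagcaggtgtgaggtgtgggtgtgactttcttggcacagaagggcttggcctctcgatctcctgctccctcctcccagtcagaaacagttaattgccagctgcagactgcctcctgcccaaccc
CCAAT on either strand stood 3 times in the Slc4a5 window and not in that of Tmem72, and 34% of 33469 promoter windows of this length held it. The letters TAATCC, the core bound by Otx2, on either strand were in neither window, nor in those of Ttr and Kl, and in 6.34% of all windows. TATAAA on either strand was in none of these 4 windows and in 12.9% of all. The motifs do not overlap each other, and a match or its lack describes these letters only.

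The levels were next compared between regions, over 12 groups in edgeR's quasi-likelihood fit, with the number of genes passing an adjusted p under 0.05 given as background. VTA against NAc core called 7 of 7 genes, all higher in VTA, where 81.6% of all tested genes were called and 41.3% were called higher. VTA against NAc shell called 5 of 7, again higher in VTA, beside 80.8% of all genes and 40.5% higher. NAc core against NAc shell called 5 of 7, all lower in core, beside 32.3% of all genes and 16.5% lower. The median log2 difference of the 7 genes was 3.67, 2.10 and -1.45 in these 3 comparisons, against 0.01, 0.00 and -0.01 over all tested genes. With the rat as a block the first 2 comparisons called 5 of 7 and 6 of 7 genes, with medians of 3.69 and 1.71, and without the 5 libraries that carried Ttr they called 5 of 7 and 7 of 7, with medians of 2.68 and 1.58. The third called 5 of 7 in both. The comparisons share libraries, and so their values are not independent of each other. By the same rule, meningeal fibroblast genes were higher in VTA than in core (10 of 10) and shell (8 of 10). Endothelial genes were higher in VTA than in both (6 of 6 each). Ependymal genes were lower in VTA than in core (4 of 7) and shell (7 of 7). In core against shell 8 of 10 meningeal and 5 of 7 ependymal genes were lower, and 4 of 6 endothelial genes were higher. The part of these cell types was not tested.

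Slc4a5, Clic6 and Otx2 had the clearest regional pattern. Slc4a5 was at 1.90 to 17.0 CPM in VTA, 0 to 0.827 CPM in NAc core and 0 to 0.572 CPM in NAc shell, so that VTA did not overlap with the other regions. How many of all tested genes were separated between regions in this way was not computed. The log2 difference of Slc4a5 was 3.67 ± 0.25 (SE) for VTA against core (adjusted p = 2.31e-24 in edgeR). Against shell it was 4.11 ± 0.25 (adjusted p = 7.38e-27 in edgeR), where the median NAc shell library had 3.5 counts, so that the size of the difference is uncertain. Otx2 was at 2.50 to 11.3 CPM in VTA with a median of 4.38 CPM, at a median of 0.228 CPM in core, and at 0 to 3.22 CPM in shell, where the highest female libraries reached into the VTA range. VTA exceeded core by 4.25 ± 0.26 and shell by 2.12 ± 0.21 on the log2 scale. Clic6 was at 2.52 to 92.6 CPM in VTA, 0 to 2.14 CPM in core and 0.137 to 7.21 CPM in shell. Its differences were 4.03 ± 0.35 and 2.10 ± 0.30. The median NAc core library had 4 counts of Slc4a5, 4 of Otx2 and 5 of Clic6, with 0 counts in 3, 8 and 4 of 31 libraries. The size of these differences from core is therefore uncertain as well. Without the 5 libraries that carried Ttr these 3 genes kept the direction and the call in both comparisons, with Clic6 at 3.32 and 1.67.

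For Ttr, Kl and Folr1 the regional differences leaned on the libraries that carried Ttr. Ttr was higher in VTA than in core by 5.82 ± 0.83 on the log2 scale (adjusted p = 1.18e-09 in edgeR), and by 2.68 ± 0.36 without those libraries. Against shell the values were 2.90 ± 0.66 and 1.39 ± 0.33. Tmem72 exceeded core by 2.47 ± 0.33 and shell by 2.04 ± 0.31, and by 1.96 and 1.58 without them. Kl, at medians of 1.15 CPM in VTA and 1.96 CPM in shell and at 0.349 to 2.65 CPM in core, was called higher in VTA than in core by 0.51 ± 0.23 (adjusted p = 0.041 in edgeR), but with the rat as a block the difference was 0.14 (adjusted p = 0.566) and without the 5 libraries it was -0.19 (adjusted p = 0.257). Folr1, at medians of 0.790, 0.571 and 1.95 CPM, differed between VTA and core by 1.15 ± 0.39 (adjusted p = 0.00494), by 0.81 with the block (adjusted p = 0.0542) and by 0.26 without those libraries (adjusted p = 0.478). Against shell, Kl and Folr1 were not called in the first fit (-0.19 ± 0.22 and -0.30 ± 0.35), and Kl was called with the block (-0.56, adjusted p = 0.0155). Without the 5 libraries both were lower in VTA, with log2 differences of -0.84 and -1.12 (adjusted p = 1.07e-06 and 0.00121 in edgeR). The VTA libraries left out had Kl at 2.02 to 19.6 times and Folr1 at 3.00 to 22.0 times the VTA median. Those left out in shell had 0.910 to 2.71 times the shell median of these genes. Leaving them out thus lowers VTA through the choice of libraries, and the p-values of that fit do not measure the regional difference alone.

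NIC was compared with SAL within each sex and region to ask which genes differed after repeated nicotine. No gene of the 7 passed an adjusted p under 0.05 in any of the 6 comparisons, nor did any of the 16879 tested genes in edgeR. DESeq2 called 0 to 9 of all genes per comparison, and none of them was a gene of this set. At an unadjusted p under 0.05, edgeR called 1 of 7 in male VTA, beside 5.62% of all genes, 0 of 7 in male core (9.83%), 1 of 7 in male shell (2.46%), 0 of 7 in female VTA (9.24%), 0 of 7 in female NAc core (6.45%) and 1 of 7 in female NAc shell (10.1%). In all 42 tests of a gene the values of the NIC and SAL libraries overlapped, and this says little of the 7 genes, since over all tested genes only 0.0118%, 0.0533% and 0.0118% did not overlap in male VTA, core and shell and 0.0474%, 0.0237% and 0.0296% in those of females.

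Each of these 3 calls was lost without 1 library, although Clic6 kept most of its difference, and none of them was made with the preparation batch as a term. In that fit Ttr in male NAc shell differed by -1.08, Tmem72 in male VTA by -1.50 and Clic6 in female NAc shell by 0.39, and in male VTA Ttr (2.46) and Clic6 (0.93) passed the unadjusted threshold as higher in NIC. In these 3 comparisons only 1 batch held both treatments, which was C in males, with 3 NIC and 2 SAL libraries in shell and 2 of each in VTA, and J in female NAc shell, with 2 of each. The batch fit rests on those libraries, so that batch and treatment can be told apart only in part. Ttr in male NAc shell ranged from 0.331 to 357 CPM in SAL, with a median of 1.15 CPM, and from 0.195 to 1.87 CPM in NIC, with a median of 0.798 CPM. Only male NAc shell SAL 5 lay above the NIC range. The log2 difference was -5.69 ± 1.53 (adjusted p = 1 in edgeR) and -0.17 ± 0.41 without that library, DESeq2 gave -0.16, and the exact permutation test of log2 CPM gave p = 0.273. Tmem72 in male VTA was at 0.567 to 3.40 CPM in NIC, with a median of 0.900 CPM, against the SAL values listed above with a median of 1.48 CPM. Its difference was -2.26 ± 0.80 (adjusted p = 0.866 in edgeR, exact permutation p = 0.295), and it was -0.60 without male VTA SAL 1. Clic6 in female NAc shell was at 0.640 to 2.36 CPM in SAL, with a median of 1.54 CPM, and at 0.814 to 7.07 CPM in NIC, with a median of 2.93 CPM. The groups overlapped in their lower part, and 4 NIC libraries, at 4.70 to 7.07 CPM, lay above all SAL libraries. The difference was 1.16 ± 0.46 (adjusted p = 0.466 in edgeR, exact permutation p = 0.213), or 0.91 ± 0.46 without female NAc shell NIC 1, where it no longer passed the unadjusted threshold. In the same comparison 5 of the 7 ependymal genes were higher in NIC at an unadjusted p under 0.05, with a median log2 difference of 0.94 and summed levels of 28.7 to 100 CPM in NIC and 10.1 to 59.7 CPM in SAL. All 4 striatal genes were lower in NIC there, with a median of -0.36. The part of these cell types in the Clic6 value was not tested.

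Female VTA held 3 of the libraries with high Ttr, in both treatments. The SAL libraries ranged from 0.157 to 858 CPM with a median of 4.11 CPM, and the NIC libraries from 0.242 to 2567 CPM with a median of 1.85 CPM. SAL 16, NIC 2 and NIC 7 were high and the other 13 libraries lay at or below 6.15 CPM. The log2 difference of NIC minus SAL was 1.57 ± 1.79 (adjusted p = 0.816 in edgeR, exact permutation p = 0.877). Without these 3 libraries it was -0.73 ± 0.70. Leaving out female VTA NIC 2 gave -2.87 and leaving out female VTA SAL 16 gave 6.69, and in that last fit 4 of the 7 genes passed the unadjusted threshold, beside 1399 of all 16879 genes.

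**Figure D3:**
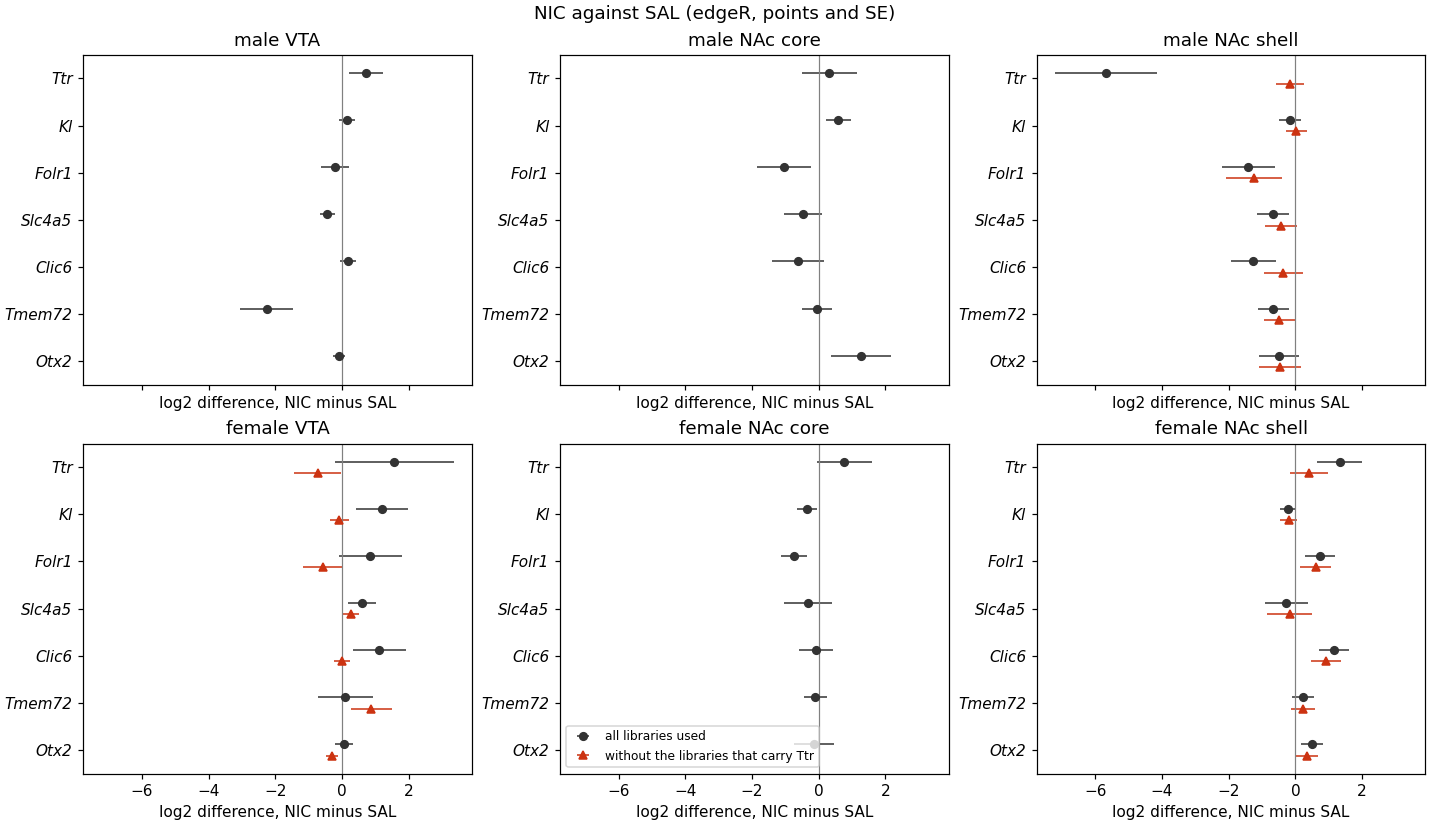
Log2 difference of NIC minus SAL for the 7 genes in each sex and region, from edgeR, with the standard error as the bar, for all libraries (black circles) and without the libraries that carry Ttr (red triangles, drawn where a comparison had such libraries). Ttr moves from -5.69 to -0.17 in male NAc shell and from 1.57 to -0.73 in female VTA.

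The sexes were compared region by region, with NIC or SAL as a term of the fit. In VTA 1 of 7 genes was called (2.33% of all genes, 1.5% lower in males). This was Ttr, lower in males with a log2 difference of -5.96 ± 1.25 (adjusted p = 0.00724 in edgeR), with 0.0916 to 10.6 CPM and a median of 3.18 CPM in males and 0.157 to 2567 CPM and a median of 2.91 CPM in females. Without the 3 female libraries that carried Ttr the difference was 0.31 ± 0.48 (adjusted p = 0.812), and DESeq2, which replaces outlying counts, gave -1.11 (adjusted p = 0.274). With the preparation batch as a term it was -3.24 (adjusted p = 0.697 in edgeR), a value that rests on batch L, the only one with both sexes, with 2 male and 3 female libraries. Without the 3 female libraries that carried Ttr, Kl and Slc4a5 were at 0.38 and 0.41 (adjusted p = 0.325 and 0.27 in edgeR).

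In NAc core 5 of 7 genes were called, all lower in males, beside 32.9% of all genes called and 17.5% called lower. Folr1 was at 0 to 1.53 CPM in males, with a median of 0.122 CPM, and at 0.256 to 2.96 CPM in females, with a median of 1.52 CPM. The ranges overlapped, and the median male library lay below the lowest female library. The log2 difference was -2.58 ± 0.43 (adjusted p = 3.91e-05 in edgeR). Clic6 had medians of 0.130 and 1.09 CPM and differed by -2.33 ± 0.46, and Otx2 had medians of 0.0538 and 0.373 CPM and differed by -2.17 ± 0.55. Tmem72 and Kl differed by -0.96 ± 0.28 and -0.80 ± 0.25. Ttr and Slc4a5, at -0.11 ± 0.61 and -0.18 ± 0.46, were not called. These values stand on small counts, since the median male library had 2.5 counts of Folr1, 2.5 of Clic6 and 1 of Otx2, which was at 0 in 7 of 16 male libraries, and the median female library had 26, 20 and 6. The male medians are within 3 counts, the limit used here for a count of 0, so that these 3 fitted differences are set against a group at the counting limit and give no bound. In the same comparison 6 of the 7 ependymal genes were called lower in males, with a median of -1.64, and all 4 striatal genes were called lower, with a median of -0.71. A fit with preparation batch as a term was not possible in this region, so that sex, box and batch cannot be told apart.

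In NAc shell 1 of 7 genes was called, beside 21% of all genes. Otx2 was at 0 to 1.34 CPM in males and at 0.498 to 3.22 CPM in females, with medians of 0.616 and 1.48 CPM, and males were lower with a log2 difference of -1.37 ± 0.35 (adjusted p = 0.00534 in edgeR). The groups overlapped. With the preparation batch as a term the value was 0.12 (adjusted p = 0.999 in edgeR), but only batch L held both sexes, with 1 male and 1 female library, so that this fit does not bear on the call. Without the 2 shell libraries that carried Ttr, Clic6 was called too, at -1.37 ± 0.39 (adjusted p = 0.0173).

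The difference of the NIC effect between the sexes was tested as an interaction. No gene of the set passed an adjusted p under 0.05. At an unadjusted p under 0.05 there were 3 of 7 in NAc shell (8.07% of all genes), 1 of 7 in VTA (11%) and 0 of 7 in NAc core (8.89%). The shell values, male minus female, were -7.00 ± 1.72 for Ttr, -2.42 ± 0.85 for Clic6 and -2.16 ± 0.94 for Folr1 (each adjusted p = 0.579 in edgeR). Without the 2 shell libraries that carried Ttr they were -0.57, -1.28 and -1.86, and none passed the unadjusted threshold. The gene in VTA was Slc4a5 at -1.05 ± 0.51 (adjusted p = 0.454 in edgeR), and without the 3 VTA libraries that carried Ttr it was -0.69 and Tmem72, at -3.12 ± 1.09, passed the unadjusted threshold in its place (adjusted p = 0.331 in edgeR). Of the 7 ependymal genes 5 had a negative interaction in NAc shell at an unadjusted p under 0.05, with a median of -1.32.

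How the 7 genes varied with each other was measured over the libraries of each region, each from another rat. Over all libraries 11 of 21 pairs in VTA, 8 of 21 in NAc core and 8 of 21 in NAc shell were positively correlated at an adjusted permutation p under 0.05 (Pearson's r of log2 CPM, 63 pairs in all, of which the 21 in a region share its libraries). The libraries that carried Ttr, at 11.3 to 2567 CPM, weigh heavily on such values, and r is therefore given for the 28, 31 and 30 libraries without them. There 4 pairs were positive and 1 was negative in VTA, 8 were positive in core and 6 in shell. These tests pool the sexes, and a difference between the sexes enters them, as in core, where 5 of the 7 genes were called lower in males. The median r over the 21 pairs in VTA was 0.46 with the carriers and -0.06 without them.

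The pair present in all 3 regions was Folr1 with Clic6. It gave r = 0.55 and rho = 0.54 in VTA (adjusted permutation p = 0.012 and 0.0211), r = 0.76 and rho = 0.77 in core (adjusted permutation p = 0.000315 for each, from the smallest p that 100000 permutations can give) and r = 0.63 and rho = 0.59 in shell (adjusted permutation p = 0.00225 and 0.00735). Leaving out the 2 libraries farthest from the median of Folr1 gave 0.48, 0.81 and 0.61. Within males r was 0.52, 0.35 and 0.76 in the 3 regions, and within females 0.57, 0.68 and 0.12. Clic6 with Otx2 gave r = 0.76 and rho = 0.71 in shell, with 0.65 in each sex, and r = -0.02 in VTA. Ttr went with Folr1 (r = 0.59, rho = 0.54) and Clic6 (r = 0.51, rho = 0.48) in VTA, and no pair of Ttr passed the threshold in core or shell. Otx2 and Tmem72 had a negative r of -0.49 in VTA, with rho = -0.24 (adjusted permutation p of rho = 0.422) and r = -0.22 without the 2 libraries farthest from the median of Tmem72, so that it rested on those libraries. The 8 pairs in core had r of 0.46 to 0.76 over both sexes, but -0.06 to 0.48 within males and -0.23 to 0.68 within females. Clic6 with Otx2 was negative in males and Kl with Clic6 in females, and Kl with Tmem72 was at 0.02 in males and Folr1 with Tmem72 at 0.07 in females. The 6 pairs in shell had r of 0.46 to 0.76 over both sexes, 0.06 to 0.78 within males and 0.10 to 0.65 within females.

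**Figure D4:**
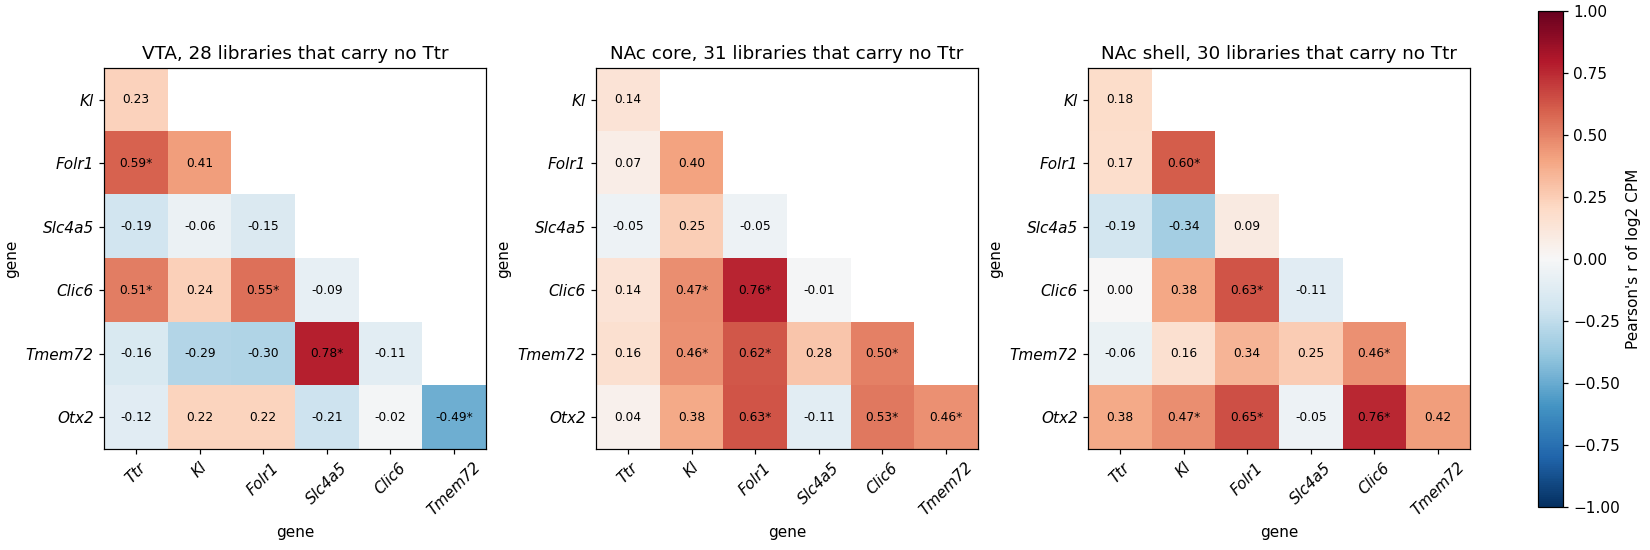
Pearson's r of log2 CPM for the 21 pairs of genes in each region, without the libraries that carry Ttr, with an asterisk where the adjusted permutation p was under 0.05. Folr1 with Clic6 has r = 0.55, 0.76 and 0.63 in the 3 regions, and Slc4a5 with Tmem72 has r = 0.78 in VTA.

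Folr1 and Clic6 also rose and fell with the ependymal genes, a relation that was computed after their values had been seen. The mean log2 CPM of the 7 ependymal genes and Folr1 gave r = 0.66 and rho = 0.62 in VTA (adjusted permutation p = 0.000378 and 0.00171), r = 0.90 and rho = 0.88 in core and r = 0.92 and rho = 0.94 in shell (adjusted permutation p = 7e-05 for each of the last, from the smallest p possible, over 21 relations). Within males these were 0.71, 0.81 and 0.92, and within females 0.65, 0.84 and 0.89. Without the 2 libraries farthest from the median of the ependymal level they were 0.59, 0.89 and 0.89. Clic6 gave r = 0.66, 0.81 and 0.70 in the 3 regions, although 0.32 in core males and 0.30 in shell females. Otx2 gave 0.60 in core and 0.61 in shell, but 0.26 in VTA, where every library held it. In core the Otx2 relation was 0.30 within each sex, and in shell it was 0.67 within males and 0.23 within females. Kl gave 0.46 in VTA (adjusted permutation p = 0.022), 0.30 in core and 0.55 in shell (adjusted permutation p = 0.00388). The Kl relation was 0.79 within males and -0.15 within females in VTA, and 0.73 and 0.08 in shell. Ttr gave 0.46 in VTA and 0.00 and 0.09 in core and shell.

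Tmem72 ran the other way in VTA. Its r with the ependymal level was -0.56 and rho -0.59 there (adjusted permutation p = 0.00388 and 0.00278), with -0.50 in males and -0.67 in females, and it was 0.49 in core. The core value was not present within females, at -0.10. Slc4a5 gave r = -0.36 in VTA (adjusted permutation p = 0.0852) and -0.08 and -0.01 in core and shell.

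**Figure D5:**
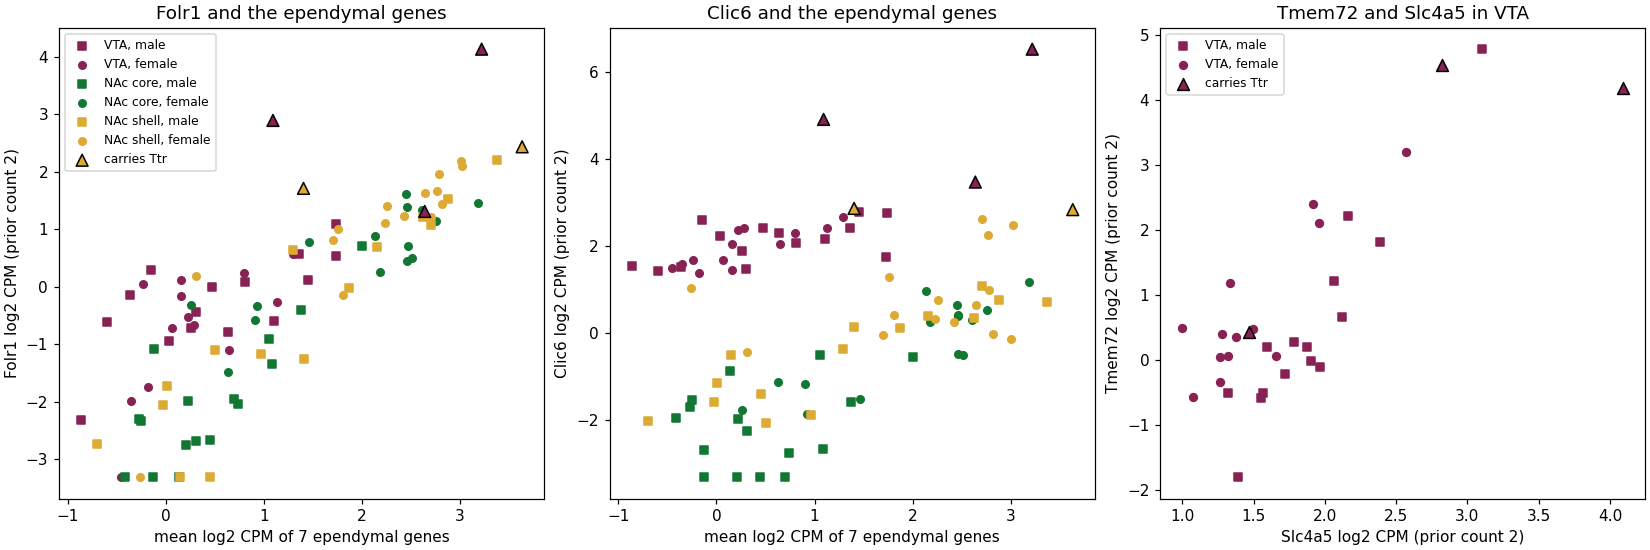
Left and middle panels, log2 CPM of Folr1 and Clic6 against the mean log2 CPM of 7 ependymal genes in 94 libraries, with regions as colours, squares for males, circles for females and triangles for the libraries that carry Ttr; right panel, Tmem72 against Slc4a5 in VTA. Folr1 rises along the ependymal level in each region, with r between 0.66 and 0.92 without the triangles.

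The genes most like the mean of the 7, over the 94 libraries centred within the 12 groups, were ranked by Pearson's r, given as a description with no test. Of the 10 highest, 7 had a symbol in the tables used here. These were Zic4, a zinc finger transcription factor, at r = 0.67, Sostdc1 at 0.65, Cldn2 at 0.60, Wipf3 at 0.59, Igfbpl1 at 0.58, and Cfap126 and Cfap43, both genes of the ciliary axoneme, at 0.57. Within VTA alone Cldn2 was at 0.90 and Sostdc1 at 0.86. Without the libraries that carried Ttr, Cldn2 and Sostdc1 fell to 0.29 and 0.24, whereas Zic4, Cfap43 and Cfap126 were at 0.67, 0.61 and 0.59.

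The likeness was also taken for 2 single genes, chosen after the values were seen and again without the libraries that carried Ttr. In 61 NAc libraries the 10 genes most like Folr1 included LOC102554658 (r = 0.88), the axonemal gene Cfap126 (0.87), Efhb (0.86), the adenylate kinase Ak7 (0.85), the dynein heavy chain Dnah1 (0.85) and Cfap44 (0.84). Ak7 and Cfap126 are also among the 7 ependymal genes. In 28 VTA libraries the 10 genes most like Tmem72 included Iqgap3 (r = 0.89), Slc4a5 (0.89, here centred within groups) and Nppc, which encodes C-type natriuretic peptide (0.86), and the other 7 had no symbol.

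The 22 other choroid plexus genes were counted in each comparison. For NIC minus SAL at an unadjusted p under 0.05, 2 were higher and 1 lower in the VTA of males (5.62% of all genes called), 9 higher and 0 lower in their core (9.83%), 0 higher and 1 lower in their shell (2.46%), 1 and 2 in female VTA (9.24%), 1 and 2 in female NAc core (6.45%) and 3 and 0 in female NAc shell (10.1%). The 9 of male NAc core were Trpv4, Msx1, Slc2a12, Slc13a4, Aqp1, Lbp, Igfbp2, Igf2 and Cldn2, where 5.78% of all genes were called higher. In that comparison 9 of 10 meningeal fibroblast genes were higher as well, as were 3 of 6 endothelial genes (Tek, Cdh5 and Kdr, median of the 6 at 0.18), and none of the 7 choroid plexus genes described here passed the threshold. The part of the meningeal and endothelial signal in the 9 genes was not tested. Between regions, 19 of the 22 were higher in VTA than in NAc core and 1, Aqp1, was lower, beside 81.6% of all genes called and 41.3% called higher. Against NAc shell 19 were higher in VTA and 2, Aqp1 and Htr2c, lower, beside 80.8% called and 40.5% called higher. In core against shell 1 was higher, Ace, and 9 were lower, beside 32.3% called and 16.5% called lower. Meningeal fibroblast genes were also higher in VTA, 10 of 10 against core and 8 of 10 against shell. Endothelial genes were higher in VTA for 6 of 6 in both, whereas 4 of 7 and 7 of 7 ependymal genes were lower. In core against shell 8 of 10 meningeal and 5 of 7 ependymal genes were lower. The part of these cell types in the counts of the 22 genes was not tested.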

How the data were processed

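RNA-seq libraries came from 3 regions of 32 rats. The authors trimmed reads with fastp 0.20.0, quantified them with Salmon 0.12.0 against Rnor 6 and collapsed transcripts by gene with tximport. The table the authors deposited holds estimated counts, given as whole numbers. Symbols were taken from the study's supplementary tables, which name 7926 of 17637 identifiers (44.9%). Groups came from the labels. The 94 libraries used are those named in a heat map of the study. Female NAc core NIC 1, whose marker genes went against its label, and the first of the paired libraries of male VTA SAL 5 are not among them and entered an alternative fit only, the pair summed. The library female VTA NIC 2, low in dopamine neuron genes, is among them and was kept; the VTA of male SAL 3 was not analysed here. Genes with a normalized count above 10 in at least 3 libraries were tested (16879).

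Counts were scaled with TMM and tested with edgeR 4.0.16 (quasi-likelihood, R 4.3.3) and the Benjamini-Hochberg adjustment over all tested genes; the fits were tested on simulated data. Log2 CPM used a prior count of 2. Single genes were also compared by a two-sided exact permutation test, and correlations by a two-sided permutation test with 100000 resamples (Python 3.11.15). Rats of a group are separate animals. Libraries of the same rat share an animal, and their deviations from the group means had median correlations of 0.03, 0.03 and 0.09 for the 3 pairs of regions, so the rat was also fitted as a block. Alternatives were DESeq2 1.42.0, the preparation batch, all mapped libraries, each library left out, and, chosen after seeing the data, fits without the 5 libraries that carried Ttr. Totals of 15868529 to 27736905 counts set the precision. The genes named as most alike were the 10 with the highest r. The 7 genes, the lists and the tests were chosen with earlier results of these data known.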

Additional observations from a re-analysis of the deposited data

Results flagged for a closer look

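In each of 84 groups (7 genes in 12 groups of 7 or 8 libraries) the highest and lowest values of log2 CPM were set against the rest with Dixon's ratio. A value stood apart in 17 groups, 13 of them by a high value, in 12 libraries. The rule's rate of about 1 in 20 groups holds for normally distributed values only. The share over all tested genes was not computed, so that 17 is not read as an excess. Some of these values stand on few counts. Otx2 in male NAc core SAL had 0 counts in 5 of 8 libraries and at most 7. Female VTA NIC 2 stood apart for Kl (4.50), Slc4a5 (4.09), Clic6 (6.53) and Otx2 (3.51), and female VTA SAL 16 for Ttr (9.75), Kl (2.67) and Clic6 (4.92). Ttr stood apart in male NAc shell SAL 5 (8.48), in female NAc core SAL 16 (0.87) and, by a low value, in male VTA SAL 7 (-2.38). The other high values were Kl in male NAc core SAL 6 (0.56), Tmem72 in male VTA NIC 11 (1.81), and Otx2 in female NAc core NIC 8 (0.68) and male NAc core SAL 8 (-1.22). Low values were Folr1 in female NAc shell SAL 10 (-3.31), Tmem72 in male NAc core SAL 3 (-2.71) and Otx2 in male VTA NIC 16 (1.62).

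The NIC effect differed between males and females at an unadjusted p under 0.05 for Slc4a5 in VTA (-1.05, male minus female on the log2 scale) and for Ttr (-7.00), Clic6 (-2.42) and Folr1 (-2.16) in NAc shell, and none passed after adjustment in edgeR. The library labelled female NAc core NIC 1, outside the 94 libraries, held Tmem72 at 10.7 CPM, Slc4a5 at 2.89 CPM, Clic6 at 2.69 CPM and Otx2 at 2.10 CPM, each above all SAL libraries of female NAc core. Its dopamine neuron genes summed to 1053 CPM and its striatal genes to 113 CPM.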

How the results depend on the processing

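Over the alternatives other than leaving out 1 library, 257 of the values of genes the text names in a comparison kept their direction and side of the threshold, 15 reversed, 17 became weaker, 6 stronger and 8 moved. Over all 7 genes in all comparisons, named or not, 41 of 490 reversed, of which 19 without the libraries that carried Ttr, 15 with the preparation batch, 4 with all mapped libraries and 3 with DESeq2. Number of the 7 genes called: in male VTA 2 with DESeq2 (both lower) and 2 with the preparation batch (Ttr and Clic6, both higher, with Tmem72 not called), in male NAc shell 0 with DESeq2, the batch or without the libraries that carried Ttr, in female VTA 1 with DESeq2, in female NAc core 1 with DESeq2 or all mapped libraries, in female NAc shell 0 with the batch or without those libraries. Males against females in VTA gave 0 with DESeq2, the batch or without those libraries, and in shell 0 with the batch and 2 without those libraries. The interaction gave 0 in VTA with DESeq2 size factors or no filter and 0 in shell without those libraries, and correlated pairs in VTA numbered 5 without them. Leaving out 1 library gave 0 to 2 genes in male VTA (without SAL 1 or SAL 6), 0 to 1 in male core, 0 to 3 in male shell (SAL 5, SAL 1), 0 to 4 in female VTA (SAL 16), 0 to 2 in female core (SAL 16) and 0 to 3 in female shell (NIC 1, NIC 4). In these fits the share of all genes called was 4.00 to 9.21%, 6.20 to 11.8%, 1.77 to 4.92%, 6.61 to 12.3%, 5.14 to 7.94% and 7.06 to 14.8%, in that order. Values that reversed without the libraries that carried Ttr were Ttr in female VTA for NIC (-0.73), Kl for VTA against core (-0.19) and, for males against females in VTA, Ttr (0.31), Kl (0.38), Folr1 (0.47), Slc4a5 (0.41), Clic6 (0.13) and Tmem72 (0.17), and in shell Ttr (-0.39) and Slc4a5 (-0.13). DESeq2 reversed Slc4a5 in VTA (0.28) and Ttr in shell (-0.36), and the batch reversed Slc4a5 (0.94) and Tmem72 (1.62) in VTA and Otx2 in shell (0.12), values that rest on the 1 batch with both sexes. Leaving out 1 library moved Ttr for NIC between -0.64 and 0.63 in male core, -2.87 and 6.69 in female VTA and -0.040 and 1.99 in female core. DESeq2 replaces outlying counts by its construction, and otherwise the cause was not tested. The preparation batch could not be fitted for males against females in NAc core.

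With the rat as a block, VTA against core called 5 of the 7 genes, VTA against shell 6 and core against shell 5. Kl and Folr1 lost the call in VTA against core (0.14 and 0.81), Kl gained it in VTA against shell (-0.56), and no other call changed. Values of Ttr, Otx2 and Slc4a5 in NAc core and of Slc4a5 in NAc shell lie near the counting limit, which bounds what could be detected there.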
